A study of Mus musculus with 10 samples.

Results

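The lysosomal genes described here are 45 genes, picked by name, that encode hydrolases of the lysosome, their activator and carrier proteins, and proteins of the lysosomal membrane. All 45 symbols were found among the 24062 genes of the count tables, and all 45 passed the filter on low counts that left 15547 genes for testing. They fall into 13 proteases, 16 glycosidases and sulfatases, 8 lipid enzymes with other luminal proteins, and 8 membrane proteins. Kidney RNA came from adult male C57BL/6N mice, 4 of which lacked Ehhadh (knockout, KO) while 4 carried it (wild type, WT). Wild-type mice of the strains DBA_2J and 129S2_SvPasCrl gave 1 further library each. No treatment is named for any group, the sex and age of the other strains' animals are not given, and nothing in the labels says how the Ehhadh allele was made. "WT" below means the 4 wild-type C57BL/6N libraries, and the other strains are called by name.

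Lysosomes are acidic organelles that break down proteins, glycans and lipids delivered by endocytosis and autophagy. Most of their enzymes are made in the endoplasmic reticulum, tagged with mannose 6-phosphate and sorted to the lysosome by receptors for that tag. Proximal tubule cells of the kidney take up filtered protein and degrade it in lysosomes. Transcription factors of the TFEB and TFE3 family bind a motif built on the E-box letters CACGTG in many lysosomal promoters. Ehhadh, the gene removed in the KO, encodes an enzyme of peroxisomal fatty acid oxidation, not of the lysosome.

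Counts assigned to genes ran from 19790430 to 35988299 in WT and from 41488104 to 52302788 in KO, with 57250374 in DBA_2J and 51192407 in 129S2_SvPasCrl, so every KO library was deeper than every WT library. Levels are given as CPM, counts scaled to a common total, with TMM scaling, a correction for library composition. Ehhadh read 285, 331, 248 and 176 CPM in the KO libraries and 3439, 2232, 2100.2 and 2197 CPM in WT, with 788 in 129S2_SvPasCrl and 796 in DBA_2J. The genotype labels and the target gene thus went together in all 8 libraries. The kidney label held too, since 10 proximal tubule markers summed to 15184 to 18208 CPM in KO and 18678 to 19116 CPM in WT. Each library came from whole kidney, in which fewer cells of a type and less RNA per cell cannot be told apart.

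The main comparison asked which of these genes differ between KO and WT kidneys. Of the 45 genes, 22 rose in KO and none fell (edgeR quasi-likelihood test, Benjamini-Hochberg adjusted p under 0.05 over all tested genes). The same call was made in the higher direction for 6.32% of the 15547 tested genes and in the lower direction for 4.68%. Among the 7777 tested genes with a mean of 20 CPM or more, a level chosen after the values were seen, 8.15% were called higher. Of the 45 genes, 40 reached that level and 22 of those 40 rose. The members' median log2 fold change (KO over WT) was 0.25, against -0.01 over all tested genes, and 37 of 45 had a positive value.

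The 4 role groups differed in how many members rose. Membrane proteins rose in 6 of 8, lipid enzymes and other luminal proteins in 5 of 8, proteases in 8 of 13, and glycosidases and sulfatases in 3 of 16. No difference between the role groups was tested. The rises were mostly small: fold changes of the 22 genes ran from 1.18 to 2.27, and 19 of the 22 were under 1.5-fold. Every KO library lay above every WT library in 23 of the 45 genes (9.77% of all tested genes) and below every WT library in 1 (7.95% of all tested genes). Of the 22 genes that rose, 17 passed in every one of the 8 fits that left out 1 library.

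**Figure D1:**
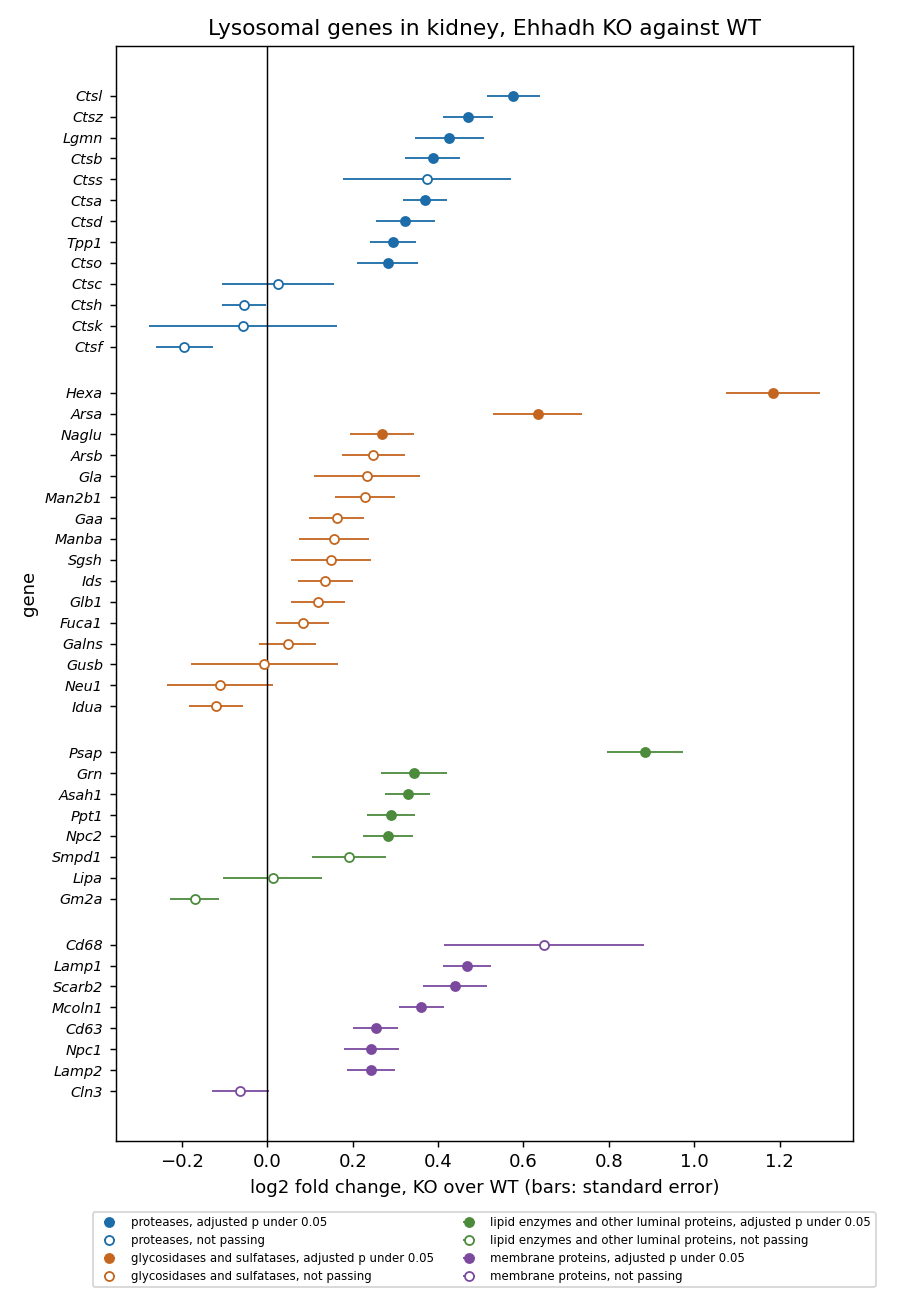
Log2 fold change (KO over WT, x axis) of each of the 45 lysosomal genes, grouped by role and coloured by group; bars are the standard error, filled points passed at an adjusted p under 0.05 and open points did not. The 22 filled points lie between 0.24 and 1.18, all to the right of 0, and the lowest open point is Ctsf at -0.19.

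The letters of the members' promoters were also read, as a description. RefSeq windows of 300 bases (250 before to 50 after a start site, GRCm38.p6, the build of the count tables) were at hand for 40 of the 45 members. The 6 letters CACGTG, which read the same on both strands, stood in the window of 14 of those 40 members (35%), against 11.1% of the 11418 tested genes with a window and 8.09% of all 27025 genes with one. Of the 19 members with a window that rose, 8 held the motif (42.1%), and of the 21 that did not pass, 6 held it (28.6%). This split by call was not tested. By role, the motif stood in 5 of 11 proteases, 6 of 15 glycosidases and sulfatases, 3 of 7 membrane proteins and 0 of 7 lipid enzymes and luminal proteins. The 8 letters TCACGTGA, which contain the 6, stood in 5 of the 40 members (12.5%) and 1.98% of the tested genes. A match of letters is a description of the window, not evidence of binding.

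Lamp1 held the most matches, 4 in a row. Its upstream sequence, at chr8:13158911-13159160 on the plus strand, ends at the base before the RefSeq start site. That start lies at position 13159161, the same as a GENCODE transcript start. The counted Lamp1 gene begins earlier, at 13159135, so the match nearest the RefSeq start lies inside the counted gene. Matches to CACGTG are in capitals, and a gene on the minus strand is read on its own strand, 5′ to 3′.

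Lamp1 upstream: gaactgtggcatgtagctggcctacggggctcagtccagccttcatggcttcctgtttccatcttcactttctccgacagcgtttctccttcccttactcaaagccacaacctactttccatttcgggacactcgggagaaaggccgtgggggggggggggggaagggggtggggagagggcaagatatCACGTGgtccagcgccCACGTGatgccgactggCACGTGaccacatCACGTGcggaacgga

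The windows of 5 other members show the motif with 10 bases on each side, for comparison of genes that rose (Mcoln1, Ctsd and Arsa) with genes that did not pass (Cln3 and Glb1). The motif's first base lay 45 bases before the start in Mcoln1, 98 in Ctsd, 16 in Arsa, 121 in Cln3 and 48 in Glb1. They lie at chr8:3500464-3500489, chr7:142387910-142387935, chr15:89477425-89477450, chr7:126583342-126583367 and chr9:114401020-114401045, with Ctsd, Arsa and Cln3 on the minus strand. In Mcoln1, Ctsd and Cln3 the capitals are part of the 8-letter form, and in Arsa and Glb1 they are not.

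Mcoln1: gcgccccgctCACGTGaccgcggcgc
Ctsd: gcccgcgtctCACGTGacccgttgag
Arsa: aactcagtgtCACGTGttgtctgctc
Cln3: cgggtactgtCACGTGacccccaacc
Glb1: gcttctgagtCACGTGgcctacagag

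The 2 genes with the largest rises, Hexa and Psap, held no CACGTG in their windows. Hexa is shown at chr9:59539290-59539539 and Psap at chr10:60277378-60277627, both on the plus strand and both ending at the base before the RefSeq start. The absence says only that these letters are not in this window. The RefSeq start of Hexa is 59539540, but the counted gene begins at 59539667, past the end of the window. The bases just before that later start were thus not searched. In 3 members that rose, the window's start lay far from the nearest GENCODE start (872 bases in Ctsa, 721 in Lgmn and 214 in Ctsl), so their matches are shown in the plot of motif positions and not as sequence.

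Hexa upstream: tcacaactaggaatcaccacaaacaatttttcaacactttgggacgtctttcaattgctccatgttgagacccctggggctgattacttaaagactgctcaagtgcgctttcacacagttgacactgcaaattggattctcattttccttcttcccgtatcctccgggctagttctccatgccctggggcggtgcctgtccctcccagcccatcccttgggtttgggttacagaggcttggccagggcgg
Psap upstream: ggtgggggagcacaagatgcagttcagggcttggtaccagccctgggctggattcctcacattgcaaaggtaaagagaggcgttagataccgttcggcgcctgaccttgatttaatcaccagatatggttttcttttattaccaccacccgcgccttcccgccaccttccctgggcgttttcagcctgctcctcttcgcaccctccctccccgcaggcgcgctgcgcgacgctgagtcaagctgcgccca

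**Figure D2:**
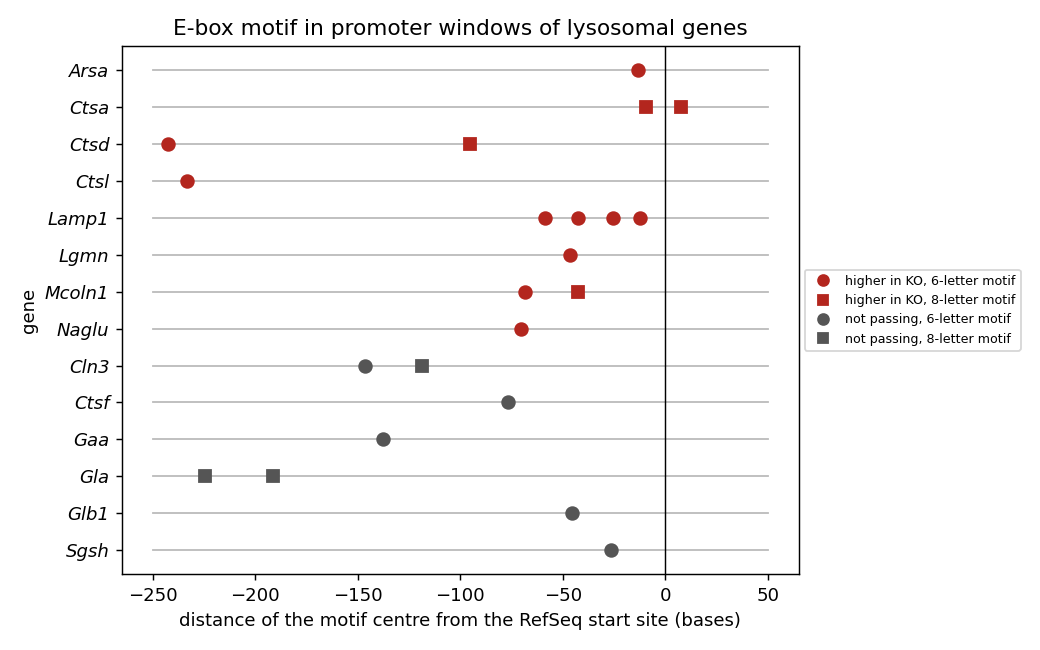
Position of each CACGTG match (x axis, bases from the RefSeq start site to the motif's centre) in the windows of the 14 members that hold it (y axis); squares are matches within the 8-letter form, red genes rose in KO and grey genes did not pass. Of the 22 matches, 21 lie before the start site, and Lamp1 has 4.

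Among the proteases the rises were spread over cysteine, aspartic and serine enzymes. Ctsl encodes cathepsin L, a cysteine endopeptidase (chromosome 13, 64363214 to 64370306, minus strand, mm10). It read 727, 713, 696 and 719 CPM in KO and 497, 517, 464 and 438 CPM in WT. The groups did not overlap, and the KO animals lay within a narrow band (log2 fold change 0.58, SE 0.06; edgeR adjusted p = 0.000295). Ctsz encodes cathepsin Z, a carboxypeptidase. Its KO libraries read 224, 228, 235 and 255 CPM and its WT libraries 165, 166, 174 and 175 CPM, with the lowest KO library far above the highest WT library. The log2 fold change of Ctsz was 0.47 (SE 0.06; edgeR adjusted p = 0.000619).

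Ctsb, which encodes the abundant cysteine protease cathepsin B, read 898, 907, 793 and 961 CPM in KO and 700.1, 663, 674 and 685 CPM in WT. KO replicate 3 was the lowest of its group but still above every WT library (log2 fold change 0.39, SE 0.07; edgeR adjusted p = 0.00383). Its exons share 774 bases (16.3%) with Fdft1, which was not called. Lgmn encodes legumain, which cuts after asparagine and processes cathepsins. Lgmn read 917, 952, 952 and 1007 CPM in KO against 776, 765, 708 and 600.3 CPM in WT. WT replicate 4 was the low library of that group, and the rise was 0.43 on the log2 scale (SE 0.08; edgeR adjusted p = 0.00753).

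Ctsa and Tpp1 encode serine peptidases. Ctsa, the protective protein that stabilises β-galactosidase and neuraminidase, read 498, 465, 479 and 479 CPM in KO and 378, 386, 364 and 359 CPM in WT (log2 fold change 0.37, SE 0.05; edgeR adjusted p = 0.00144). Tpp1, an aminopeptidase lost in a childhood neuronal ceroid lipofuscinosis, read 302, 312, 309.7 and 336 CPM in KO and 266, 251, 253 and 257 CPM in WT (0.29, SE 0.05; edgeR adjusted p = 0.00636). In both genes the groups did not overlap and the WT libraries lay close together. Exons of Ctsa share 495 bases with Pltp and 325 with Neurl2, both at under 30 CPM and neither called, so a small part of its count is uncertain.

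The aspartic protease gene Ctsd, which encodes cathepsin D, rose 1.25-fold to 909.9 ± 77.0 CPM from 728 ± 26.4 (SD, n = 4 each; edgeR adjusted p = 0.014). Ctso rose 1.22-fold, to 32.2 ± 2.52 from 26.5 ± 1.10 CPM (edgeR adjusted p = 0.0274). Ctso passed in 4 of the 8 fits with 1 library left out; leaving out KO replicate 1 or 2, or WT replicate 2 or 4, ended its call (edgeR adjusted p up to 0.066).

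The other 5 proteases did not pass. Ctsf, a cysteine cathepsin, read 73.8, 71.5, 70.6 and 82.7 CPM in KO and 92.3, 85.0, 81.4 and 83.1 in WT, the lowest log2 fold change of all members (-0.19, SE 0.07; edgeR adjusted p = 0.0873). Only KO replicate 4 reached the WT range, and without it Ctsf passed as lower (adjusted p = 0.0259 in edgeR). Ctss, cathepsin S of antigen-presenting cells, read 9.91, 7.17, 12.2 and 6.73 CPM in KO and 5.81, 8.25, 7.54 and 6.07 in WT, so the groups overlapped (0.37, SE 0.20; edgeR adjusted p = 0.259). Ctsk, the cathepsin of bone-resorbing osteoclasts, had 2.27 ± 0.563 CPM in KO and 2.34 ± 0.474 in WT (SD, n = 4 each), the lowest level per length of all members. Ctsh (-0.05, SE 0.05) and Ctsc (0.03, SE 0.13) were near 0 on the log2 fold change scale.

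Ctss is at home in macrophages, as is the endosomal membrane gene Cd68, and both were low in these kidneys. The 18 macrophage markers summed to 166 to 189 CPM in KO and 192 to 211 CPM in WT, with every marker counted in every library. One of them, Cd14, rose (6.32% of all tested genes did), and Csf1r fell (4.68% did). Csf1r went from a mean of 57.7 CPM in WT to 37.0 CPM in KO, and the mean sum from 199.8 to 179.3 CPM. The difference in the sum was thus about that of Csf1r alone, and the list's median log2 fold change was -0.03. The part of the macrophage markers in the levels of Ctss, Cd68 or any other member was not tested.

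Enzymes that trim sugars and sulfate groups held the gene with the largest rise and also the most genes that did not pass. Hexa encodes the α subunit of β-hexosaminidase A, which removes a terminal sugar from the ganglioside GM2 (chromosome 9, 59539667 to 59565105, plus strand, mm10). It read 82.3, 88.0, 101 and 123 CPM in KO and 43.4, 40.5, 44.6 and 44.7 CPM in WT. The WT libraries were tight and every KO library was far above them, with KO replicate 4 highest (log2 fold change 1.18, SE 0.11; edgeR adjusted p = 0.000117). The GM2 activator gene Gm2a, which presents the lipid to that enzyme, did not pass and is described with the lipid proteins.

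Arsa encodes arylsulfatase A, which removes sulfate from sulfatide, a lipid abundant in kidney. It read 27.2, 27.2, 24.5 and 31.3 CPM in KO and 17.6, 15.3, 17.3 and 20.9 CPM in WT, without overlap (log2 fold change 0.63, SE 0.10; edgeR adjusted p = 0.00332). Naglu, an enzyme of heparan sulfate breakdown, was the only one of the 22 risen genes whose groups overlapped, since WT replicate 2 at 68.6 CPM lay above KO replicate 2 at 66.1. Its other KO libraries read 74.3, 77.1 and 78.9 CPM and its other WT libraries 62.1, 57.4 and 58.1 CPM. The adjusted p of Naglu was 0.044 in edgeR, and the call was kept in 2 of the 8 fits with 1 library left out (up to 0.125 in the other 6), those without KO replicate 2 or WT replicate 2.

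The remaining 13 genes of this group did not pass. Arsb, the sulfatase of dermatan sulfate, came nearest: 264, 283, 268 and 262 CPM in KO against 248, 245, 204 and 210.1 in WT (log2 fold change 0.25, SE 0.07; edgeR adjusted p = 0.0526). The lysosomal α-mannosidase gene Man2b1 was close behind, at 243, 234, 243 and 256 CPM in KO and 219, 229.6, 193 and 191 in WT (0.23, SE 0.07; edgeR adjusted p = 0.0599). Neither gene's groups overlapped, and in both WT replicates 1 and 2 lay nearest to KO. Gla, the α-galactosidase gene lost in Fabry disease, read 7.12, 7.09, 6.44 and 6.77 CPM in KO and 5.50, 4.87, 6.01 and 6.90 in WT (0.23, SE 0.13; edgeR adjusted p = 0.269).

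The log2 fold changes of the other 10 were 0.16 for Gaa and Manba, 0.15 for Sgsh, 0.14 for Ids, 0.12 for Glb1, 0.08 for Fuca1, 0.05 for Galns, -0.01 for Gusb, -0.11 for Neu1 and -0.12 for Idua. Neu1, the sialidase gene and the highest of the group per length, varied widely among WT animals, at 742, 923, 666 and 596 CPM. Gusb varied in the same way, at 63.0, 85.0, 46.4 and 45.5 CPM in WT, and its standard error of 0.17 on the log2 scale was among the widest. In both Neu1 and Gusb, WT replicates 1 and 2 read above WT replicates 3 and 4. The sample titles of these pairs differ in form, as described below. The exons of Sgsh share 955 bases (22.1%) with Card14, which rose from 14.8 to 22.2 CPM, and reads were counted without strand, so the level of Sgsh is uncertain.

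The lipid group was led by the most abundant member. Psap encodes prosaposin, the precursor of the 4 saposins that present glycolipids to hydrolases (chromosome 10, 60277628 to 60302600, plus strand, mm10). It read 5049.6, 5207, 5008 and 5439 CPM in KO and 3063, 3104, 2701 and 2351 CPM in WT. The lowest KO library lay far above the highest WT library, a 1.85-fold difference (log2 fold change 0.88, SE 0.09; edgeR adjusted p = 0.000206). Psap made up 28.1 to 29.0% of the summed CPM of the 45 genes in KO and 18.8 to 21.9% in WT.

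Asah1 encodes acid ceramidase and read 83.8, 82.2, 86.6 and 90.4 CPM in KO and 67.7, 70.0, 67.5 and 68.0 CPM in WT (log2 fold change 0.33, SE 0.05; edgeR adjusted p = 0.00259). Ppt1, a thioesterase that strips fatty acids from proteins, read 109, 106, 102 and 116 CPM in KO and 92.8, 87.9, 85.9 and 87.8 CPM in WT (0.29, SE 0.06; edgeR adjusted p = 0.00897). Both had tight WT libraries and no overlap. Npc2, the luminal carrier that hands cholesterol to NPC1, read 132, 122, 133 and 134 CPM in KO and 110.5, 114, 103 and 102 CPM in WT (0.28, SE 0.06; edgeR adjusted p = 0.012).

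Grn, which encodes progranulin, rose from 241 ± 24.8 to 306 ± 17.1 CPM (SD, n = 4 each; log2 fold change 0.34, SE 0.08; edgeR adjusted p = 0.0176). Its libraries read 325, 299.6, 313 and 286 CPM in KO and 268, 253, 233 and 211 CPM in WT, so the groups lay side by side without overlap. Leaving out KO replicate 1, or WT replicate 3, ended the call of Grn (edgeR adjusted p up to 0.0571).

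Smpd1, Gm2a and Lipa did not pass. Gm2a was the only member in which every KO library lay below every WT library, at 312, 286, 304 and 323 CPM against 329, 353, 357 and 339 (log2 fold change -0.17, SE 0.06; edgeR adjusted p = 0.0855). The acid sphingomyelinase gene Smpd1 read 122, 125, 109 and 141 CPM in KO and 117, 109, 95.8 and 115 in WT (0.19, SE 0.09; edgeR adjusted p = 0.187). Lipa, the acid lipase for cholesteryl esters, read 259, 249.9 and 269 CPM in KO replicates 1 to 3, below the WT libraries at 293, 299.8, 272 and 281, and 378 in KO replicate 4, above them. Its mean difference was near 0 (0.01, SE 0.12; edgeR adjusted p = 0.963).

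Among the membrane proteins 6 of 8 rose. Lamp1 encodes a heavily glycosylated protein that lines the lysosomal membrane (chromosome 8, 13159135 to 13175338, plus strand, mm10). It read 1896, 1867, 1789 and 1899 CPM in KO and 1387, 1392, 1304 and 1304 CPM in WT, with a wide gap between the groups (log2 fold change 0.47, SE 0.06; edgeR adjusted p = 0.000512). Its paralog Lamp2, which also serves chaperone-mediated autophagy, rose less: 859, 908, 867 and 859 CPM against 743, 779, 731 and 697 (0.24, SE 0.06; edgeR adjusted p = 0.0193). Leaving out KO replicate 2, or WT replicate 3, ended the call of Lamp2 (edgeR adjusted p up to 0.0608).

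Mcoln1 encodes a cation channel that releases lysosomal calcium, and read 78.1, 73.6, 76.3 and 74.3 CPM in KO and 60.2, 60.0, 60.0 and 55.3 CPM in WT (log2 fold change 0.36, SE 0.05; edgeR adjusted p = 0.00169). Scarb2, which encodes the sorting receptor LIMP-2 for glucocerebrosidase, read 49.3, 53.98, 44.5 and 48.6 CPM in KO and 40.1, 34.1, 36.3 and 34.5 CPM in WT (0.44, SE 0.07; edgeR adjusted p = 0.00391). The tetraspanin gene Cd63 read 1291, 1208, 1289 and 1238 CPM in KO and 1037, 1064, 1074 and 1040.0 CPM in WT (0.25, SE 0.05; edgeR adjusted p = 0.012). None of these 3 genes had overlapping groups.

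Npc1, the membrane protein that exports cholesterol, rose least firmly: 36.2, 37.7, 36.3 and 34.1 CPM in KO and 28.5, 31.0, 32.8 and 29.3 in WT (log2 fold change 0.24, SE 0.06; edgeR adjusted p = 0.0343). Its call was kept in 2 of the 8 fits with 1 library left out, in which KO replicate 4, or WT replicate 3, was absent (edgeR adjusted p up to 0.0972 in the others). Cd68 read 3.69, 2.56, 4.60 and 4.80 CPM in KO and 2.36, 2.32, 3.35 and 1.91 in WT, with overlap (0.65, SE 0.23; edgeR adjusted p = 0.103). Among the fits with 1 library left out, Cd68 passed only without KO replicate 2 (edgeR adjusted p = 0.0484). Cln3, the gene of the juvenile ceroid lipofuscinosis, read 23.6, 24.5, 25.5 and 24.0 CPM in KO and 27.9, 25.2, 25.3 and 23.9 in WT, with overlap (-0.06, SE 0.07; edgeR adjusted p = 0.606).

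**Figure D3:**
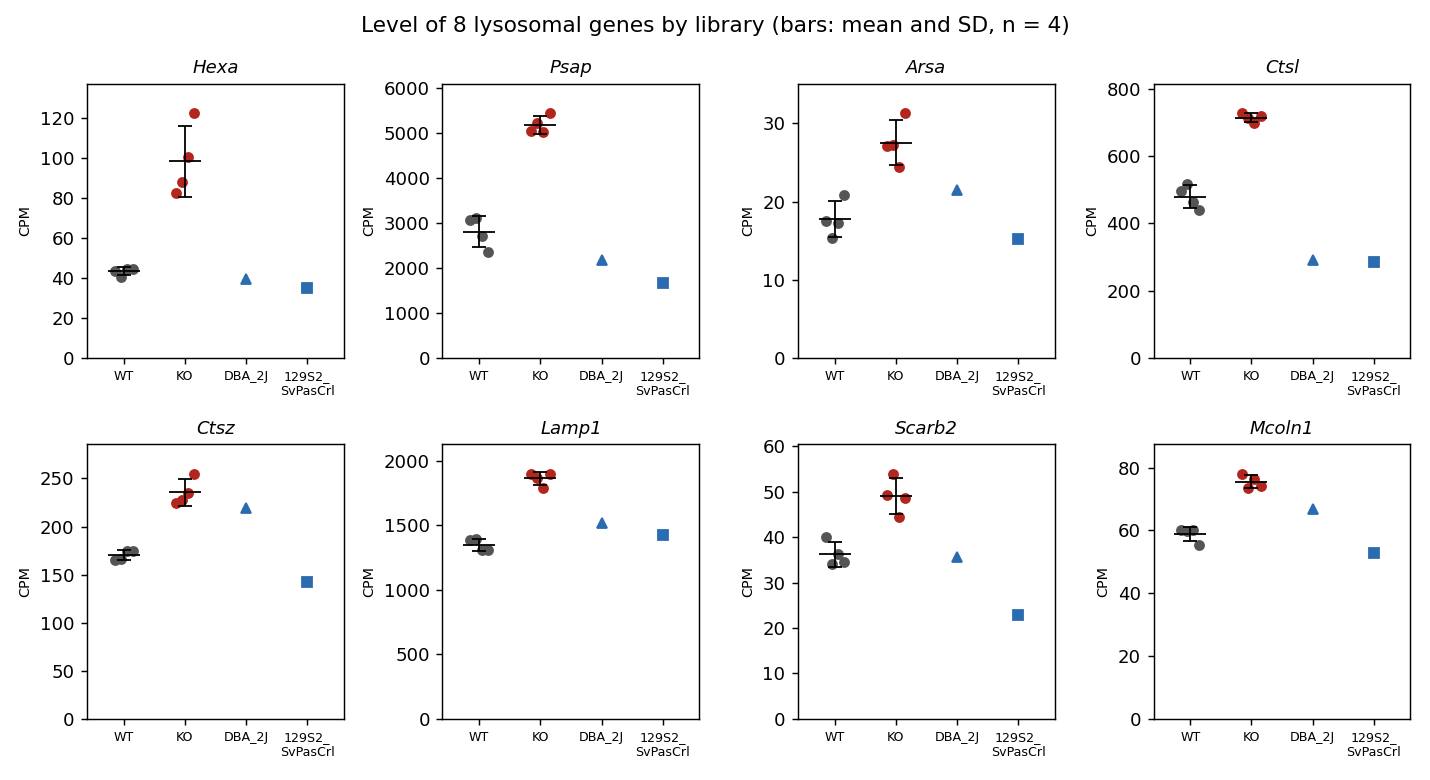
CPM (y axis, from 0) of 8 lysosomal genes in each library; grey points are WT, red points KO, with mean and SD (n = 4 each), and the blue triangle and square are the single DBA_2J and 129S2_SvPasCrl libraries. In all 8 genes every KO point lies above every WT point, and both strain points lie below the KO points.

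Summed over a role group, the libraries showed the same order. Membrane proteins summed to 4132 to 4237 CPM in KO and 3186 to 3388 CPM in WT. Proteases summed to 4586 to 5075 CPM in KO and 3569.0 to 3869 CPM in WT. Lipid proteins summed to 6326 to 6909 CPM in KO and 3554 to 4389 CPM in WT. Mean lipid sums were 6526 CPM in KO and 4050 CPM in WT, and Psap alone had means of 5176 and 2805 CPM. Most of the lipid difference was thus Psap, and without it the lipid sums of KO and WT overlapped. Glycosidases and sulfatases overlapped, at 2486 to 2692 CPM in KO and 2195 to 2711 CPM in WT. All 45 genes together took 1.77 to 1.89% of scaled counts in KO and 1.25 to 1.43% in WT. These sums are a description and rest on the abundant members.

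**Figure D4:**
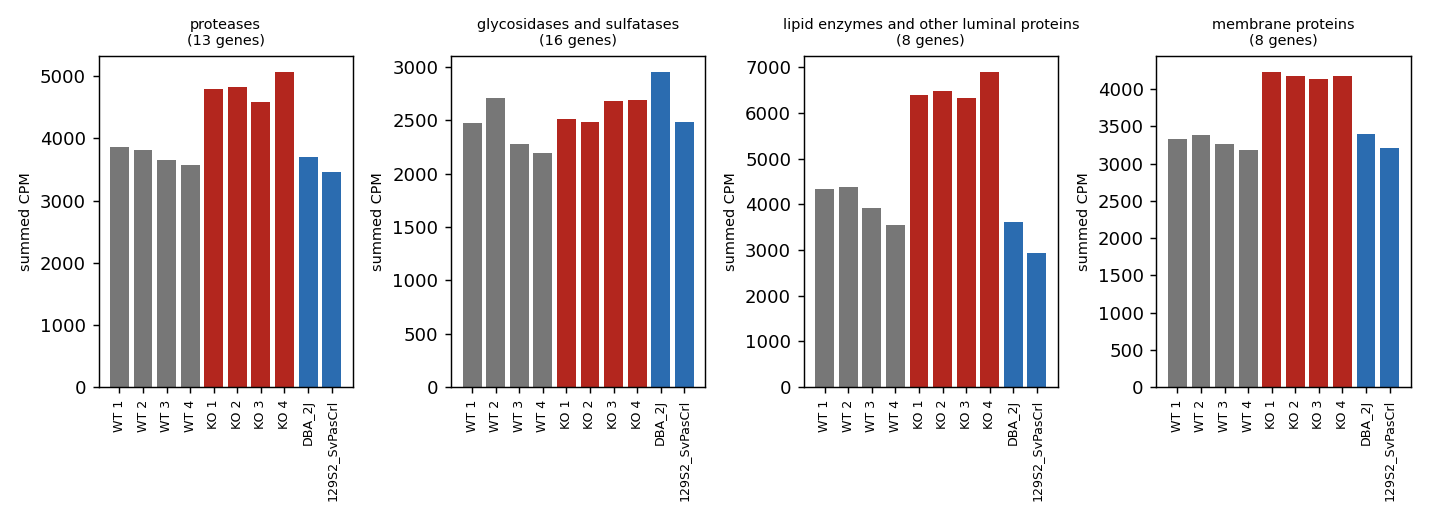
Summed CPM (y axis, from 0) of the members of each role group in each library (x axis); grey bars are WT, red bars KO and blue bars the single DBA_2J and 129S2_SvPasCrl libraries. The KO bars are higher than every WT bar for proteases, lipid proteins and membrane proteins, and overlap with WT for glycosidases and sulfatases. Most of the lipid difference is Psap, and without it the lipid sums overlap.

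Per kilobase of exon, the members spanned from 1.48 CPM per kb (Ctsk) to 1026 CPM per kb (Psap) in WT. Psap was followed by Cd63 (870.2), Lamp1 (597), Lgmn (380.1), Ctsd (372) and Ctsl (243). In KO Psap read 1894 CPM per kb and Cd63 1038. Genes that rose had WT levels from 17.8 to 2805 CPM. The 5 members under 12 CPM in WT (Ctss, Ctsk, Ctsc, Gla and Cd68) did not pass, and their standard errors were 0.13 to 0.23 on the log2 scale.

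Of the 8 C57BL/6N sample titles, those of 2 KO and 2 WT animals (replicates 3 and 4 of each) start with the letter E and the others do not. What this form of the title marks is not in the labels. Of all 45 members, 32 had a positive log2 fold change within each form. The 22 risen genes were chosen on the pooled libraries, which largely fixes their sign, and ranged from 0.18 to 1.32 with the E and from 0.10 to 1.02 without it. The interaction of form and genotype was called for 0 of 15547 tested genes (0%) and for 0 members. At an unadjusted p under 0.05 in edgeR it held 9 of the 45 members, against 6.46% of all tested genes, and no other tool was run for it. They were Neu1, Gusb, Man2b1, Naglu, Galns, Manba, Psap, Lgmn and Lipa, of which Psap, Lgmn and Naglu are among the 22 risen genes. Each of the 9 had a lower log2 fold change without the E than with it. The smallest p was that of Neu1 (0.0015; adjusted 0.441), which read a log2 fold change of 0.23 with the E and -0.43 without it.

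With 2 animals per group in each form, Hexa, Psap and Ctsl were called higher with the E, where 0.617% of all tested genes were called higher, 0.328% lower and no member lower. Without the E, 18 members were called higher, against 6.02% of all tested genes. Ctsf, Neu1 and Lipa were called lower there, against 5.18% of all tested genes.

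Further genes of lysosome biology were taken from lists that hold no member. The shares to set beside their counts are those over all tested genes, 6.32% called higher and 4.68% called lower. Among other luminal hydrolases 9 of 23 rose and none fell. The dipeptidyl peptidase gene Dpp7 went from 75.3 ± 3.99 to 134.5 ± 6.24 CPM (log2 fold change 0.84, SE 0.06), and Man2b2, a second α-mannosidase gene, from 62.7 ± 6.42 to 98.9 ± 11.4 CPM (SD, n = 4 each). The carboxypeptidase gene Prcp rose by 0.36 (SE 0.05) and the nuclease gene Dnase2a by 0.38 (SE 0.07) on the log2 scale. Of 20 tested further membrane proteins 5 rose and none fell, led by the cystine exporter gene Ctns (0.37, SE 0.07), Litaf (0.54, SE 0.10), the chloride-proton exchanger gene Clcn7 (0.26, SE 0.06) and Glmp (0.22, SE 0.06). Of these 8 named genes, 7 passed in each of the 8 fits with 1 library left out, and Glmp passed in 2 of them (edgeR adjusted p up to 0.106). Among the other hydrolases that rose, Hyal1 passed in 2 of the 8 fits, and Hgsnat and Aga in 1 each (edgeR adjusted p up to 0.0754, 0.11 and 0.103). The medians were 0.10 for both lists.

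Genes that sort hydrolases to the lysosome were mostly not called. Of 15, Gnptg, Vps29 and Vps35 rose (20%, against 6.32% of all tested genes) and Sort1 fell (4.68% of all tested genes did). Gnptg encodes a subunit of the enzyme that makes the mannose 6-phosphate tag (log2 fold change 0.25, SE 0.05), and Vps29 and Vps35 encode retromer subunits that recycle its receptors (0.29 and 0.27, SE 0.06 each). Sort1, an alternative sorting receptor, went from 52.9 ± 4.84 to 43.3 ± 2.98 CPM (SD, n = 4 each; edgeR adjusted p = 0.0342), a call kept in 3 of the 8 fits with 1 library left out (up to 0.0821 in the others). The call of Vps29 was kept in 7 and that of Vps35 in 6 of those 8 fits. The mannose 6-phosphate receptor genes M6pr and Igf2r did not pass (-0.05 and 0.12).

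Of 3 tested cathepsin inhibitor genes 2 rose, where 6.32% of all tested genes were called higher. Serpinb6a, a serine protease inhibitor gene, went from 25.3 ± 0.515 to 65.8 ± 7.21 CPM and Cstb, the cytosolic cystatin B gene, from 55.2 ± 3.80 to 97.1 ± 5.32 CPM (SD, n = 4 each; log2 fold changes 1.38 and 0.81). The secreted inhibitor gene Cst3 read 0.02. Of 9 regulators of lysosomal transcription 2 rose, against the same 6.32% of all tested genes. Rragd, a GTPase gene of amino acid sensing, rose by 0.54 (SE 0.08) on the log2 scale. Tfe3 rose by 0.29 (SE 0.07, edgeR adjusted p = 0.0216). The call of Tfe3 was kept in 3 of the 8 fits with 1 library left out (up to 0.0616 in the others). Tfeb itself read -0.11 and did not pass.

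Other cell markers moved in the same libraries. Their counts stand beside 6.32% of all tested genes called higher and 4.68% called lower. Of 10 markers of injured tubule, 7 rose, among them Havcr1, the gene of the injury protein KIM-1 (1.81 to 44.9 CPM), at list sums of 988 to 1339 CPM in WT and 1236 to 2082 CPM in KO, while 4 of 10 proximal tubule markers and 6 of 10 markers of other nephron segments fell. In the fits with 1 library left out, Slc22a8 and Slc27a2 of those proximal tubule markers passed in all 8, Slc13a3 in 3 and Lrp2 in 1. Of the other nephron markers, Fxyd4, Atp6v1g3 and Slc4a1 passed in all 8, Aqp2 in 4, and Slc12a3 and Slc12a1 in 3 each. The injury marker Spp1 passed in 2, and the other 6 that rose in all 8. None of 7 fibroblast markers passed, at sums of 115 to 163 CPM in KO and 145 to 167 CPM in WT. Of 10 listed T cell, B cell and neutrophil markers 6 were tested and none passed, at sums of 2.63 to 3.82 CPM in KO and 3.08 to 3.63 in WT. Their part in the lysosomal levels was not tested.

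The single libraries of the other strains are labelled wild type for Ehhadh, yet Ehhadh read 788 CPM in 129S2_SvPasCrl and 796 CPM in DBA_2J, below the WT range of 2088 to 3417 CPM on the same scaling. They have no replicates, so a difference was counted where a library lay at least 1.5-fold from the WT mean (log2 CPM with a prior count of 2) and outside the range of the 4 WT libraries. By that rule 3 of 45 members were above and 5 below in 129S2_SvPasCrl, against 8.96% and 11.2% of all tested genes. In DBA_2J 5 were above and 6 below, against 11.2% and 16.6%. These shares are near the background. Both comparisons use the same 4 WT libraries.

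In DBA_2J, Gusb read 231 CPM against 45.3 to 84.3 in WT, 4.01-fold the WT mean, Smpd1 314 CPM against 95.2 to 116 (2.91-fold) and Asah1 136 CPM against 67.1 to 69.4 (2.01-fold). Lowest in DBA_2J were Ctsf at 47.2 CPM against 80.9 to 91.7 (0.557 times the WT mean), Ctsl at 291 CPM against 436 to 512 (0.614) and Ctss at 4.18 CPM against 5.77 to 8.17 (0.618). In 129S2_SvPasCrl the highest were Asah1 at 115 CPM (1.70-fold), Ctso at 44.0 CPM (1.67-fold) and Smpd1 at 173 CPM (1.60-fold). The lowest were Ctss at 2.85 CPM (0.423 times the WT mean), Glb1 at 106 CPM (0.599) and Psap at 1668 CPM (0.602). Smpd1 and Asah1 were thus above, and Ctsl and Ctss below, in both strains.

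Of the 22 genes that rose in KO, 6 lay above every WT library in 129S2_SvPasCrl (32.5% of all tested genes did) and 13 below (32.1%). In DBA_2J 14 of them lay above (35.1%) and 6 below (37.3%). Hexa read 34.7 CPM in 129S2_SvPasCrl and 39.6 in DBA_2J, both under the lowest WT library, and Psap read 2183 CPM in DBA_2J. Asah1, in contrast, read higher in both strain libraries than in any KO library.

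**Figure D5:**
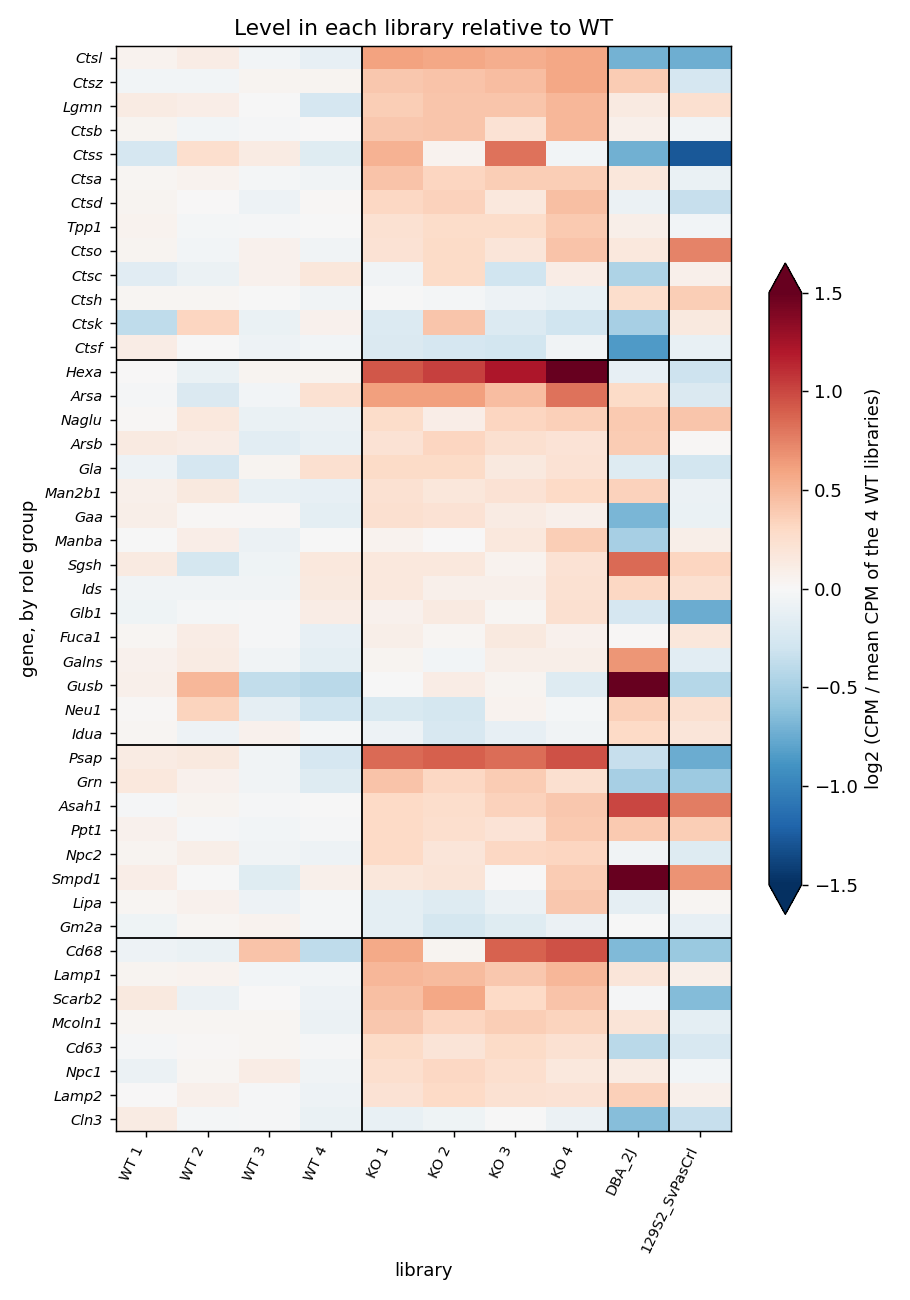
Level of each of the 45 lysosomal genes (rows, by role group) in each library (columns) as log2 of CPM over the mean of the 4 WT libraries, from blue (lower) to red (higher); the colour scale ends at 1.5 in either direction. The KO columns are red across most proteases, lipid proteins and membrane proteins, while the DBA_2J and 129S2_SvPasCrl columns mix red (Gusb in DBA_2J, Smpd1, Asah1) and blue (Ctsl, Ctss).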

How the data were processed

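Kidney polyadenylated RNA of 10 mice was sequenced as single-end reads, per the labels' protocols. STAR, featureCounts and edgeR and the build mm10 are named in the submitters' processing notes. Per the file headers, featureCounts 1.5.2 made the deposited raw counts over exons, giving a read to every gene it overlapped and setting no strand option. The deposited log2 values of 13645 genes equalled TMM-scaled log2 CPM to within 4.97e-14 and were not tested.

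Genotype was tested on the deposited counts of the KO and WT libraries by the quasi-likelihood F test of edgeR 4.0.16 under R 4.3.3, after filterByExpr and TMM, with p-values adjusted over 15547 genes. The standard error is the log2 fold change over the square root of F. The biological coefficient of variation was 12.3%. No label says how animals were paired or housed, and replicate numbers only name libraries. The p-values set the KO against WT difference against the spread between these animals, as estimated by edgeR. The members, lists and tests were chosen with earlier results of these data known. Values are given in full for up to 6 called members per role group by smallest p and up to 3 that did not pass, and for the 3 members farthest above and below WT in each strain. Further lists held 186 symbols, members included, of which 2 matched by an older symbol (Adgre1 and Glmp). Motif letters were searched in RefSeq promoter windows. DESeq2 1.42.0, limma 3.58.1, other scalings, filters, terms, depths and left-out libraries were alternatives. Some genes of the further lists are counted but not reported by name here.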

Additional observations from a re-analysis of the deposited data

Results flagged for a closer look

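In each group of 4 libraries, a library was marked when its gap to the nearest other library over the group's whole range exceeded Dixon's 95% critical value. Of 90 groups (45 genes in KO and in WT), 6 were marked, and chance marks about 1 in 20. Lipa in KO replicate 4 read 378 CPM against 249.9 to 269 in the other KO libraries. Ids in WT replicate 4 read 71.3 CPM against 62.2 in each of the other WT libraries, and Mcoln1 in the same library 55.3 CPM against 60.0 to 60.2. In KO replicate 2, Ctsk read 3.11 CPM against 1.91 to 2.04, Lamp2 908 CPM against 859 to 867, and Npc2 122 CPM against 132 to 134 in the other KO libraries.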

How the results depend on the processing

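The 22 risen genes were chosen on the same libraries that the alternatives use again, which largely fixes their sign. Across 18 alternatives, their log2 fold changes kept that sign in all 396 values and passed in 349. Of the 47 that did not pass, 19 came from the 4 libraries with a leading E alone. In that subset the genes called over all numbered 96 higher and 51 lower, and the members called higher were 3 in all, 1 protease, 1 glycosidase or sulfatase, 1 lipid protein and 0 membrane proteins. The 4 libraries without the E called 936 genes higher and 806 lower, with 18 members higher and 3 lower. DESeq2 called 5 glycosidases and sulfatases higher (Arsb and Man2b1 added) and 1 member, Gm2a, lower, and title form as a term also gave 5. Upper quartile scaling called 2 members lower (Ctsf and Gm2a) and no longer called Naglu and Npc1, and over all genes the higher share of calls was 47.0% against 57.4%. The cause was not tested. Thinned to 19790430 counts, 20 of the 22 genes passed, without Ctso and Npc1. With 1 library left out, members called ran from 18 to 22 higher and 0 to 1 lower, with proteases 7 to 8, glycosidases and sulfatases 2 to 5, lipid proteins 4 to 5 and membrane proteins 5 to 6. Over all genes these fits gave 611 to 914 higher calls (fewest without KO replicate 1, and 631 without WT replicate 3) and 385 to 723 lower calls (400 without KO replicate 1, 406 without KO replicate 2, 464 without WT replicate 1 and 385 without WT replicate 3). At a 2-fold limit, members above and below WT were 0 and 1 in 129S2_SvPasCrl and 3 and 0 in DBA_2J. No share of all tested genes was worked out at that limit, so these counts cannot be set against a background. The 8-letter motif stood in 5 members in place of 14. No paired analysis was possible because the labels give no replicate numbers that tie KO to WT animals. The standard errors of the 5 members under 12 CPM were 0.13 to 0.23 on the log2 scale, and Gusb, at a higher level, had 0.17.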
